A study of Homo sapiens with 6 samples.

Results

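The 38 genes described here are the chaperones of the endoplasmic reticulum (ER), the cytosol and the mitochondria together with the sensors and targets of the unfolded protein response. They were taken by symbol from a list of names, after each transcript of the deposited table had been counted once and summed by symbol, and all 38 were found among the 27852 symbols of the table. By role, 15 are ER folding factors, 7 are sensors of the response or parts of ER-associated degradation, 13 are cytosolic chaperones and their regulators, and 3 are mitochondrial.

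The study measured poly(A) RNA of oral squamous carcinoma cells of the established human lines HSC3, HSC4 and SAS, with strand-specific libraries on a DNBSEQ instrument. Each line was grown in DMEM, a standard culture medium rich in glucose and amino acids, and in HPLM, a medium made to resemble human plasma, which gave 6 libraries, 1 for each line and medium. Both media carried 10% heat-inactivated fetal bovine serum and the same antibiotic mix, so the DMEM and HPLM cultures share these. Each line is 1 established culture with no repeat culture in a medium, so the p-values measure the spread over 3 lines for the medium, and over libraries in different media for the lines.

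Proteins that enter the ER are folded by HSPA5 (BiP) and HSP90B1 (GRP94), by the lectin chaperones calnexin and calreticulin and by disulfide isomerases. When unfolded proteins build up there, the sensors IRE1 (ERN1), ATF6 and PERK start the unfolded protein response: IRE1 splices the XBP1 message, ATF6 is cut to a transcription factor, and PERK phosphorylates eIF2alpha and raises translation of ATF4. The products of XBP1 and ATF6 raise ER chaperones and the degradation machinery. In the cytosol, the heat shock factor HSF1 raises the HSP70, HSP90, HSP40 and small heat shock protein genes, and mitochondria have a chaperonin, HSPD1 with HSPE1, and an HSP70 of their own, HSPA9.

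The classes also differed in the letters around their start sites. RefSeq start windows (GRCh38.p14, 250 bases before to 50 after the start) were matched for 36 of the 38 members and 27305 genes in all, and both strands were searched. The ER stress element, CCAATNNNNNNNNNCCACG, stood in the windows of 0.0916% of all genes and of 7 members: HSPA5, HSP90B1, CALR, CRELD2, PDIA6, CANX and XBP1. No cytosolic or mitochondrial member held it. The following stretches are shown because they carry that element. Capitals mark its fixed letters, every sequence is the gene's own strand, and where the match is on the opposite strand the element reads CGTGG first and ATTGG last.
HSPA5 (chr9:125241371-125241429, minus strand): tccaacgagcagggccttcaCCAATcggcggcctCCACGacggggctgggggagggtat
CALR (chr19:12938364-12938422, plus strand): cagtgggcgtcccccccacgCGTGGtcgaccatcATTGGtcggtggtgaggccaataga
CRELD2 (chr22:49918534-49918592, plus strand): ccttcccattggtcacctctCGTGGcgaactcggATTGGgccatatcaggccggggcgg
PDIA6 (chr2:10812848-10812876, minus strand): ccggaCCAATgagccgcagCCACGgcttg
HSP90B1 (chr12:103930211-103930239, plus strand): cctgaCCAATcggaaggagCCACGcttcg
CANX (chr5:179698773-179698801, plus strand): cccggCCAATcttcacactCCACGaagaa
XBP1 (chr22:28800598-28800626, minus strand): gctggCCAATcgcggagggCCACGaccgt
In HSPA5 the element lies 66 to 48 bases before the start, and HSP90B1 held it at 2 places.

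The shorter form of the element, ATTGGNCCACG, stood in the windows of 0.0696% of all genes and of HERPUD1, SDF2L1 and HYOU1. The core of the XBP1-type element, TGACGTGG, stood in 0.927% of all genes and, among the members, in HYOU1 alone, where it overlaps the short form. The heat shock element, written here as GAANNTTCNNGAA, stood in 0.608% of all genes and in 5 members, DNAJA1, HSP90AA1, HSP90AB1, HSPA8 and the mitochondrial HSPD1. The match in DNAJA1 lies after its start and is not shown. No ER folding or degradation member held the heat shock form. These stretches show the short form and the heat shock form, with their fixed letters in capitals.
HERPUD1 (chr16:56932016-56932044, plus strand): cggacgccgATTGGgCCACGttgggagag
SDF2L1 (chr22:21642094-21642144, plus strand): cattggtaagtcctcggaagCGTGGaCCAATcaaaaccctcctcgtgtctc
HYOU1 (chr11:119057360-119057410, minus strand): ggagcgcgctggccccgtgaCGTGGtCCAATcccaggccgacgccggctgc
HSP90AB1 (chr6:44247811-44247863, plus strand): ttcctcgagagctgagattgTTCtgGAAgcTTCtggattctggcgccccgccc
HSP90AA1 (chr14:102087112-102087140, minus strand): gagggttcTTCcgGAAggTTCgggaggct
HSPA8 (chr11:123062346-123062374, minus strand): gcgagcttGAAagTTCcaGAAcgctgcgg
HSPD1 (chr2:197500060-197500088, minus strand): attttctgGAAagTTCtgGAAccgagcga
The stretches shown for HSP90B1, CANX, HSP90AA1, HSPA8 and HSPD1 overlap an annotated exon. A match describes the letters only, and a window without one says nothing about the factor. PDIA3 and HSF1 had no window in the table.

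Levels are given in CPM, estimated counts brought to a common library size. The counts are already corrected for transcript length, so levels can be compared between genes. Library totals lay between 17715962 and 20171750 estimated counts. All 8 squamous epithelial markers were above 1 CPM in every library, though KRT14, a basal keratin, was at 4.4 and 10.8 CPM in HSC4 against 165 to 1503 CPM in the other lines. Summed CPM of 7 fibroblast markers were 2.05 to 6.13 in DMEM and 3.39 to 6.52 in HPLM, of 6 leukocyte markers 3.87 to 7.22 and 4.83 to 7.03, and of 4 endothelial markers 0.471 to 1.00 and 0.308 to 2.49, with COL3A1 and KDR at 0 throughout. In bulk RNA, fewer cells that express a gene and less RNA per cell cannot be told apart.

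The members spanned mean levels from 5.46 CPM for DNAJB9 to 3206 CPM for HSPA8, the constitutive cytosolic HSP70. Together they held between 1.15% and 1.66% of a library. The 13 cytosolic members held 0.657% to 1.05%, the 15 ER folding members 0.342% to 0.439%, the 3 mitochondrial members 0.122% to 0.230%, and the 7 sensor and degradation members 0.0145% to 0.0268%. The cytosolic class was thus above the ER class in each of the 6 libraries. HSPA8 made up 39.1% of the cytosolic class, CALR 23.0% of the ER class, HSPD1 42.5% of the mitochondrial class and XBP1 38.8% of the sensor class on average.

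**Figure D1:**
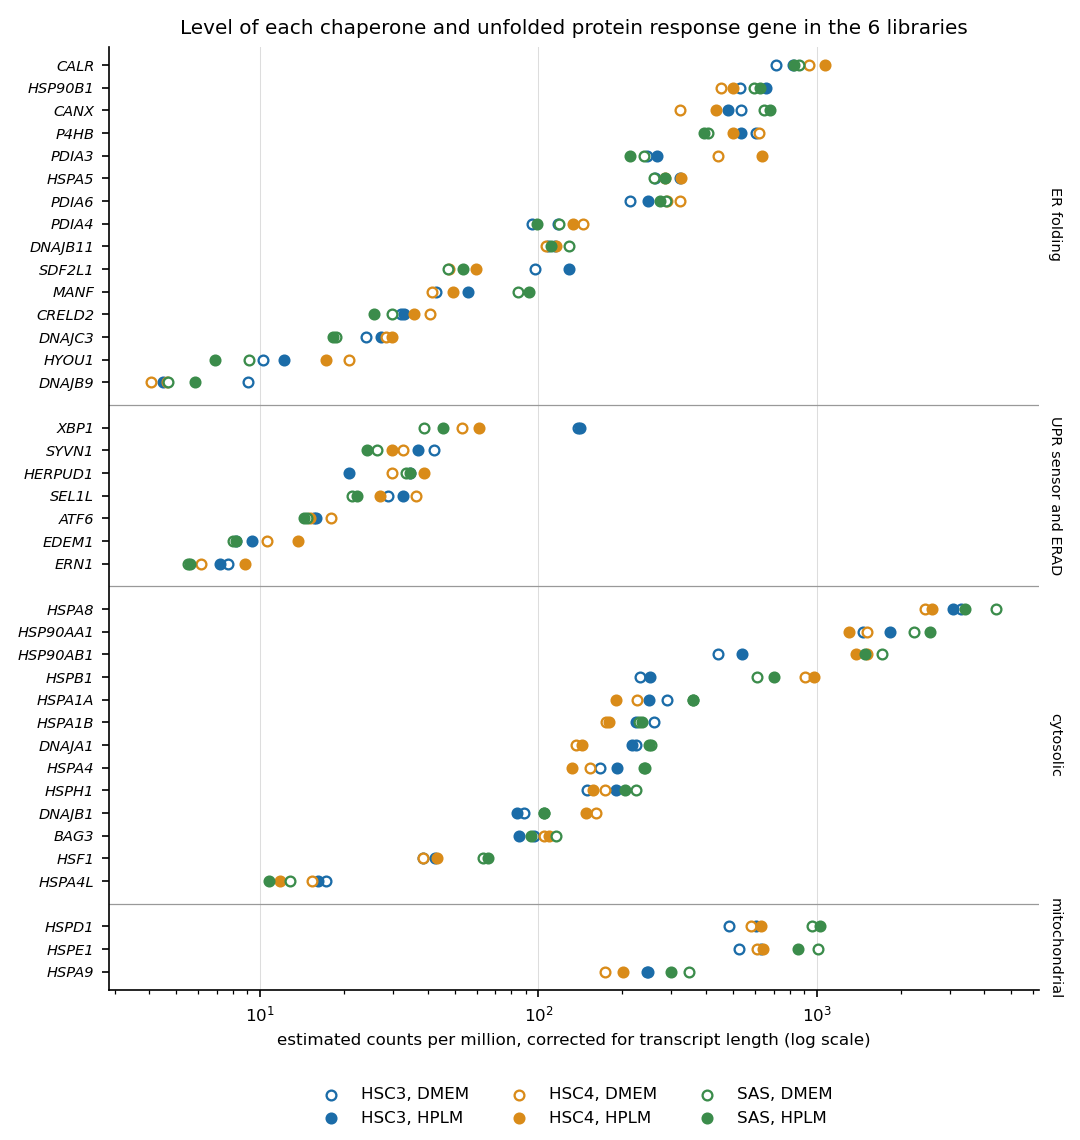
Level of the 38 members in the 6 libraries, in CPM on a log scale, grouped by role and ordered by mean level within a role. Open circles are DMEM and filled circles HPLM, and color gives the line. HSPA8 lies above 2400 CPM in every library, while DNAJB9 and ERN1 stay below 10 CPM.

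**Figure D2:**
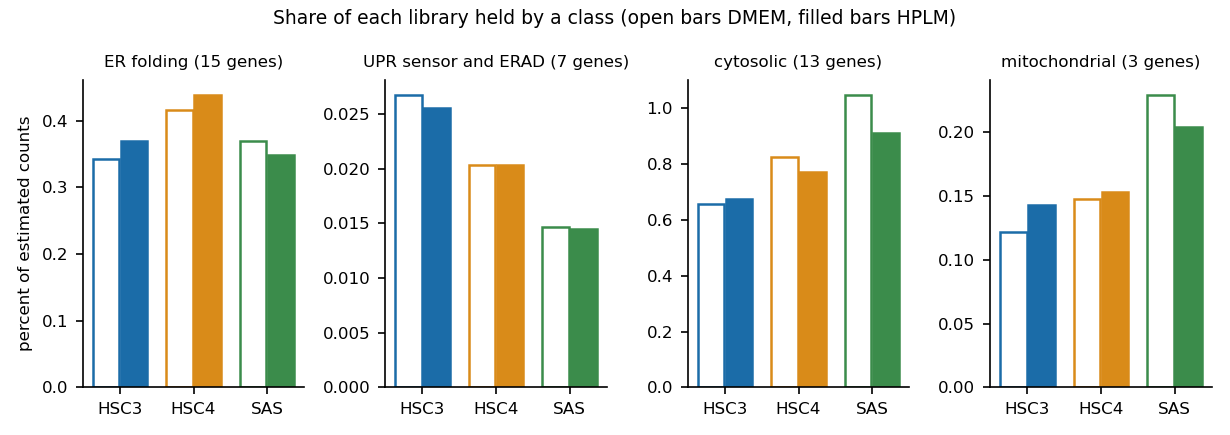
Percent of all estimated counts held by each class, 1 bar per library, open for DMEM and filled for HPLM, with axes from 0. SAS has the highest cytosolic and mitochondrial shares and HSC3 the highest sensor and degradation share in both media. XBP1, the largest member of the sensor and degradation class, is highest in HSC3. By mean level HSC4 is highest in 5 of the 7 genes of that class and HSC3 in 2.

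The first question was whether these genes differ between the media. No member was called, in a fit where 0.00756% of the 13236 genes tested (1 gene) passed an adjusted p of 0.05 (edgeR quasi-likelihood test, Benjamini-Hochberg, cell line and medium as terms). At an unadjusted p under 0.05 there were 2 members, SDF2L1 and MANF, or 5.26% of the 38, against 10.1% of all genes tested. DESeq2, limma-voom and limma-trend also called none of the members, where they called 127, 9 and 0 of all genes tested (0.96%, 0.068% and 0%). The estimates were small: the 38 log2 fold changes of HPLM over DMEM ran from −0.238 to 0.306 with a median of −0.001, beside 0.000 over all genes tested. The 95% interval lay within 1 log2 unit of 0 for all 38 members, against 76.7% of all genes tested. For 35 members it also lay within a 1.5-fold change either way, the exceptions being DNAJB9, HERPUD1 and ERN1. The width of an interval depends on the level of a gene, and members and all genes were not matched for level.

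By class, the median log2 fold change of HPLM over DMEM was 0.079 for the ER folding members, −0.061 for the sensor and degradation members, −0.014 for the cytosolic members and 0.032 for the mitochondrial members. For the sensor and degradation class the mean, 0.016, had the opposite sign to the median. These medians depended on the lines: the ER folding median was 0.017 without HSC4, and the sensor median was 0.208 without HSC3. The cytosolic median was −0.104 without HSC3, and the mitochondrial median was 0.166 without SAS and −0.017 with no scaling factor. Across the lines the ER folding medians of the log2 ratio were 0.208 for HSC3, 0.153 for HSC4 and −0.040 for SAS. Thus 12 of 15 ER folding members had more RNA in HPLM in HSC3, 10 of 15 in HSC4 and 6 of 15 in SAS. Cytosolic medians were −0.041, −0.122 and −0.007. In all 3 lines 9 members had a higher level in HPLM, 23.7% of the 38 against 16.9% of all genes tested, and 5 had a lower one, 13.2% against 17%. The 9 were HSPA5, HSP90B1, SDF2L1, MANF, XBP1, EDEM1, HSF1, HSPB1 and HSPD1, and the 5 were P4HB, SYVN1, HSPA1A, HSPA4L and DNAJB1. These are sums over all transcripts, and the part from complete coding transcripts moved the other way in some pairs. From DMEM to HPLM its share went from 97.6% to 91.2% for XBP1 in HSC3. In SAS it went from 88.1% to 76.5% for MANF, 73.7% to 66.3% for EDEM1 and 95.2% to 97.4% for DNAJB1. In HSC3 it went from 49.8% to 69.9% for P4HB and 72.4% to 88.5% for HSPA4L.

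**Figure D3:**
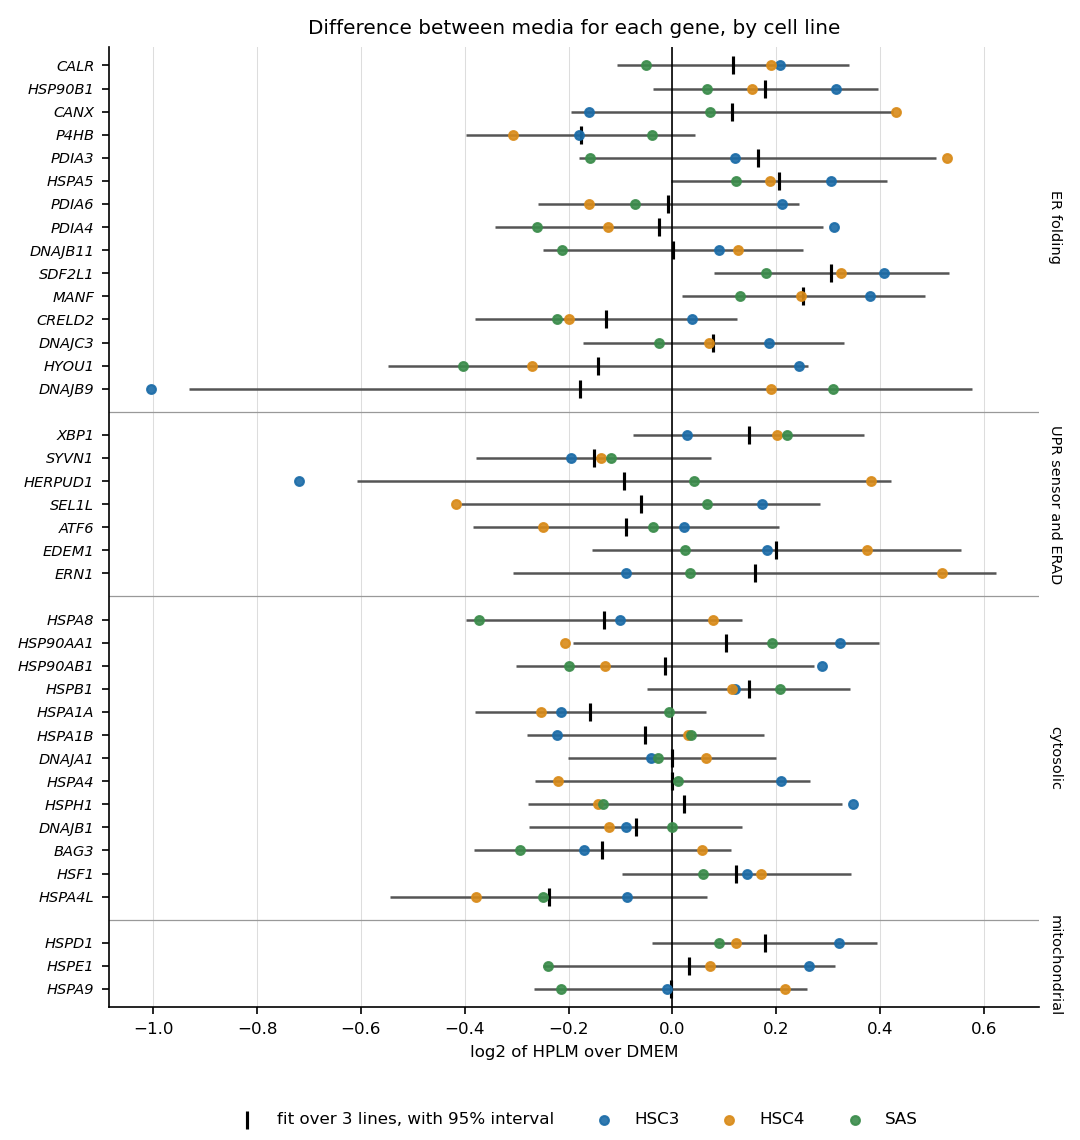
Log2 of HPLM over DMEM for each member. Colored points are the 3 lines, from 1 library per medium each, and the black tick and bar are the fitted value and its 95% interval. The points of DNAJB9 and HERPUD1 for HSC3 lie at −1.0 and −0.72, left of the other lines, and no fitted value passes the adjusted test.

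SDF2L1 (chr22:21642261-21644298, plus strand, GENCODE 29), an ER factor that works with HSPA5 and its J-domain partners, had the lowest p of the members. Its level in DMEM and HPLM was 97.0 and 129 CPM in HSC3, 47.7 and 59.7 CPM in HSC4, and 47.2 and 53.5 CPM in SAS. HPLM was above DMEM within each line, but HSC3 in DMEM was above both other lines in HPLM, so the media overlapped. The log2 fold change was 0.31 ± 0.09 (SE; unadjusted p = 0.0162, edgeR adjusted p = 0.406). MANF, a small ER protein released under stress that binds HSPA5, was at 43.0 and 56.0 CPM in HSC3, 41.6 and 49.3 CPM in HSC4, and 84.4 and 92.3 CPM in SAS. The medium differences within a line were again smaller than the gap between SAS and the rest, and the log2 fold change was 0.25 ± 0.10 (SE; unadjusted p = 0.0389, edgeR adjusted p = 0.470). In SAS a retained-intron form of 436 bases, MANF-203, rose from 8.05% to 20.8% of the MANF estimate. The complete coding share fell there from 88.1% to 76.5%, so that part of MANF was not higher in HPLM in SAS.

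HSPA5 itself (chr9:125234853-125241330, minus strand), the main HSP70 of the ER, was at 261 and 323 CPM in HSC3, 285 and 325 CPM in HSC4 and 261 and 284 CPM in SAS. HSP90B1, the HSP90 of the ER, was at 529.6 and 659 CPM, 451 and 502 CPM, and 595 and 624 CPM in the same order. For both genes the HPLM library of a line was the higher of its pair and the step was largest in HSC3 and smallest in SAS, while the ranges of the media overlapped. The log2 fold changes were 0.21 ± 0.09 (SE; edgeR adjusted p = 0.5) for HSPA5 and 0.18 ± 0.09 (SE; edgeR adjusted p = 0.560) for HSP90B1. Of the 7 members with the ER stress element shown above, HSPA5, HSP90B1 and XBP1 were higher in HPLM in all 3 lines, and CALR, CRELD2, PDIA6 and CANX were mixed. These are sums over all transcripts, and 16.9% of all genes tested were higher in HPLM in all 3 lines. A link between the element and the medium was not tested. P4HB, a protein disulfide isomerase and a subunit of prolyl hydroxylase, leaned the other way, from 607 to 536 CPM in HSC3, from 619.9 to 501 CPM in HSC4 and from 405 to 394 CPM in SAS (log2 fold change −0.18 ± 0.09 SE, edgeR adjusted p = 0.568). In HSC3 an incomplete form of 353 bases, P4HB-214, fell from 43.01% to 24.92% of the P4HB estimate. The share of complete coding transcripts rose there from 49.8% to 69.9%, so that part of P4HB was higher in HPLM in HSC3.

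DNAJB9 (ERdj4), a J-domain partner of HSPA5 and a target of spliced XBP1, was the lowest of all members. It went from 9.06 CPM in DMEM to 4.46 CPM in HPLM in HSC3, from 4.06 to 4.65 CPM in HSC4 and from 4.69 to 5.83 CPM in SAS. HERPUD1, an ER membrane protein that recruits the degradation machinery, went from 34.4 to 20.9 CPM in HSC3, from 29.7 to 38.8 CPM in HSC4 and from 33.4 to 34.4 CPM in SAS. In both genes the sum over transcripts was lower in HPLM in HSC3 and higher in the other lines. For DNAJB9 a retained-intron form of 584 bases held 25.17% and 0% in HSC3, in DMEM and HPLM. It held 23.43% and 35.37% in HSC4, where the complete coding transcript of DNAJB9 was not higher in HPLM. The fitted log2 fold changes of DNAJB9 and HERPUD1, −0.18 and −0.09, average over opposite values, and without HSC3 they became 0.26 and 0.21. The difference between the lines was not tested, there being 1 library for each line and medium.

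Genes of the PERK and ATF4 branch come from another list, of 12 genes, with PERK itself (EIF2AK3) and EIF2S1, which encodes eIF2alpha, among them. From this list DDIT3, TRIB3 and ATF4 were picked after their values were seen. DDIT3 (CHOP), a transcription factor of the late response, went from 34.9 to 24.5 CPM in HSC3, from 11.0 to 17.9 CPM in HSC4 and from 17.1 to 27.7 CPM in SAS. TRIB3, a pseudokinase induced by ATF4 and CHOP, went from 49.9 to 26.5 CPM, from 27.9 to 40.5 CPM and from 29.6 to 39.5 CPM in that order. ATF4 itself went from 364 to 265 CPM, from 199.7 to 215 CPM and from 261 to 367 CPM. Each was lower in HPLM in HSC3 and higher in HPLM in the other lines. The median log2 ratio of the list was −0.414 in HSC3, 0.25 in HSC4 and 0.454 in SAS, with 3, 10 and 10 of the 12 genes above 0. ATF3, a stress-induced transcription factor, was an exception and was higher in HPLM in every line, going from 1.2 to 2.41 CPM, from 2.58 to 5.73 CPM and from 2.05 to 5.41 CPM (log2 fold change 1.19 ± 0.26 SE, unadjusted p = 0.00357, edgeR adjusted p = 0.362). The list had 1 of 12 genes at an unadjusted p under 0.05 (8.33% against 10.1%).

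**Figure D4:**
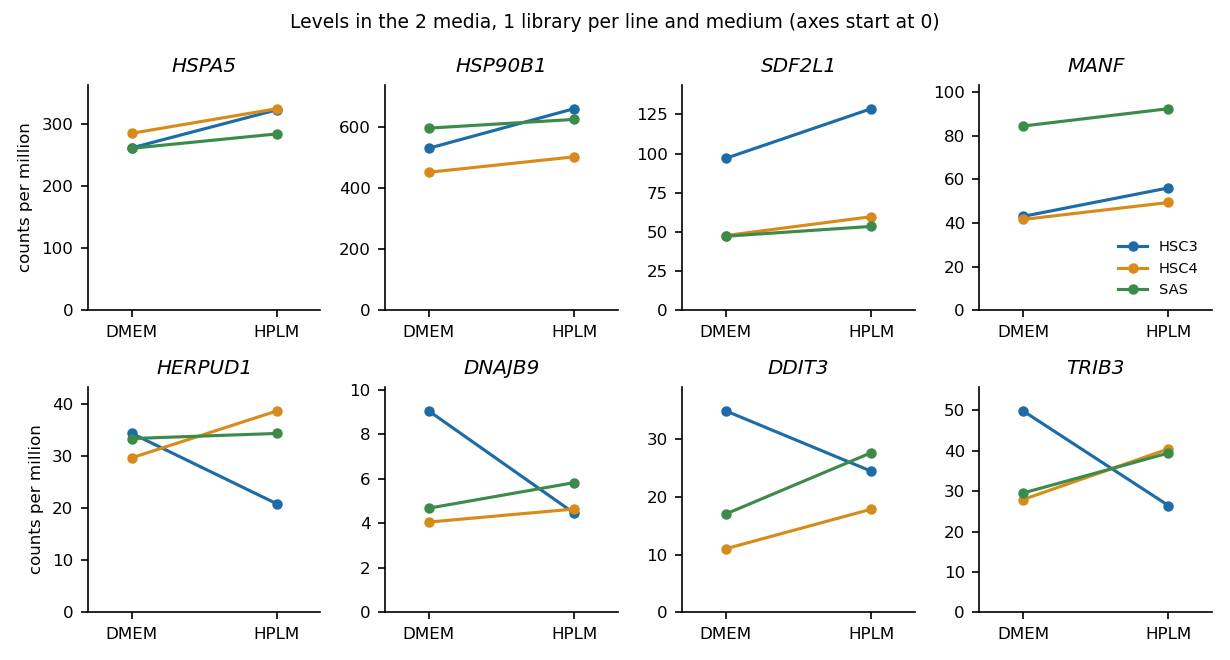
Levels in DMEM and HPLM of 6 members and of DDIT3 and TRIB3, in CPM from 0, with a line joining the libraries of each cell line. As sums over all transcripts, HSPA5, HSP90B1, SDF2L1 and MANF are higher in HPLM in all 3 lines. On the same sums HERPUD1, DNAJB9, DDIT3 and TRIB3 are lower in HSC3 and higher in HSC4 and SAS.

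The IRE1 branch showed small medium differences. XBP1 (chr22:28794555-28800597, minus strand) was at 138 and 141 CPM in HSC3, 53.1 and 61.1 CPM in HSC4, and 38.8 and 45.2 CPM in SAS. The log2 fold change of HPLM over DMEM was 0.15 ± 0.09 (SE; edgeR adjusted p = 0.630). ERN1, which encodes IRE1, was at 7.64 and 7.18 CPM, 6.12 and 8.81 CPM, and 5.49 and 5.62 CPM, with the largest step in HSC4. EDEM1, a lectin-like factor that passes misfolded glycoproteins to degradation, was at 8.22 and 9.34 CPM, 10.6 and 13.7 CPM, and 8.02 and 8.17 CPM. Neither passed the test between media (log2 fold changes 0.16 ± 0.19 and 0.20 ± 0.15 SE, edgeR adjusted p = 0.816 and 0.682). SYVN1 (HRD1), the ubiquitin ligase of ER-associated degradation, was lower in HPLM in each line, at 42.2 and 36.9 CPM, 32.6 and 29.7 CPM, and 26.4 and 24.3 CPM (log2 fold change −0.15 ± 0.09 SE, edgeR adjusted p = 0.627).

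Splicing of XBP1 by IRE1 removes a short intron and gives a message with a longer reading frame. In the table the form with 376 codons (XBP1-202) took 9.28% and 4.44% of the sum of itself and the unspliced form of 261 codons (XBP1-201) in HSC3, in DMEM and HPLM. It took 15.4% in both media in HSC4, and 2.25% and 8.10% in SAS. The share was lower in HPLM in HSC3, equal in HSC4 and higher in SAS, so the media overlapped and no direction was shared. The longer form rested on 14 to 238 estimated counts a library. Its annotated transcript holds the coding part alone, 1131 bases against 1850, so reads from the shared ends may be assigned to the other form, and the share is an estimate with no test.

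Among the cytosolic members HSPA8 was at 3301 and 3079 CPM in HSC3, 2448 and 2585 CPM in HSC4 and 4415 and 3408 CPM in SAS. HSP90AA1, the inducible HSP90, was at 1461 and 1827 CPM, 1509 and 1308 CPM, and 2241 and 2559 CPM. The direction of the medium difference varied with the line in both genes (log2 fold changes −0.13 ± 0.11 and 0.10 ± 0.12 SE, edgeR adjusted p = 0.722 and 0.810). HSPA1A, the stress-induced HSP70, was at 289 and 249 CPM in HSC3, 227 and 190.0 CPM in HSC4, and 360 and 358 CPM in SAS. Its neighbor HSPA1B was at 261 and 224 CPM, 175 and 179 CPM, and 229.8 and 236 CPM. These copies are nearly identical and almost all of their counts came from transcripts outside the primary assembly, so how the reads split between them is uncertain. Their sum was 549 and 472 CPM, 402 and 369 CPM, and 589.6 and 594 CPM. The sum was lower in HPLM in HSC3 and HSC4 and nearly equal between media in SAS.

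HSF1, the regulator of these genes, was at 38.4 and 42.4 CPM in HSC3, 38.5 and 43.3 CPM in HSC4 and 63.4 and 66.0 CPM in SAS. It was higher in HPLM in each line by a small step (log2 fold change 0.12 ± 0.09 SE, edgeR adjusted p = 0.684), and SAS lay above the other lines in both media. HSPA4L, an HSP110-type exchange factor, had the most negative medium estimate of the members, −0.24 ± 0.13 (SE; edgeR adjusted p = 0.573), from 17.2 to 16.2 CPM, from 15.3 to 11.8 CPM and from 12.8 to 10.8 CPM. HSPB1 (HSP27), a small heat shock protein of keratinocytes, was at 232 and 252 CPM in HSC3, 906 and 979.9 CPM in HSC4, and 610.2 and 704 CPM in SAS. Its medium difference was 0.15 ± 0.08 (SE; edgeR adjusted p = 0.588), far below its differences between lines.

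In mitochondria, HSPD1 (HSP60) was at 484 and 605 CPM in HSC3, 578 and 629 CPM in HSC4 and 963 and 1025 CPM in SAS. HPLM was the higher in each line (log2 fold change 0.18 ± 0.09 SE, edgeR adjusted p = 0.562). HSPE1 (HSP10), the lid of the same chaperonin, was at 525 and 631 CPM, 609 and 640.3 CPM, and 1007 and 853 CPM. The ratio of HSPD1 to HSPE1 was between 0.922 and 0.983 in 5 libraries and 1.2 in SAS in HPLM. The HSPD1 starts in the table lie 105 and 539 bases from the HSPE1 start on the other strand of chromosome 2. The heat shock form shown above lies 240 to 228 bases before the farther start and after the nearer one. HSPA9 (mortalin) was at 247 and 245 CPM, 173 and 201 CPM, and 349 and 300.3 CPM, with a medium estimate of 0.00 ± 0.11 (SE; edgeR adjusted p = 0.996).

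The lines differed far more than the media. In HSC4 against HSC3, 12 of 38 members passed the adjusted test, 31.6% beside 37.4% of all genes tested. In SAS against HSC3 there were 15 members, 39.5% beside 39.4%, and in SAS against HSC4 there were 22, 57.9% beside 41.3%. In any pair there were 28 of 38, or 73.7%, beside 63% of all genes tested. Only 2 libraries stand behind each line, and the counts moved when 1 was left out. With a library of a compared line left out, mostly fewer members passed, and fewer of all genes tested passed as well. Without the DMEM library of HSC4, the share of members that passed in SAS against HSC4 was no longer above that of all genes.

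By class, members that passed were higher in SAS than in HSC4 for 7 of 13 cytosolic and all 3 mitochondrial genes, and lower for 2 cytosolic genes, DNAJB1 and HSPB1 (20% of all genes tested were called higher and 21.3% lower). Of the 15 ER folding members, 3 were higher in SAS than in HSC4 and 5 were lower. Of the 7 sensor and degradation members, none was higher and 2 were lower, XBP1 and EDEM1, and the estimates of all 7 were below 0. Against HSC3, SAS was higher in 6 cytosolic members and lower in 1, and higher in 2 mitochondrial members. Of the ER folding members 1 was higher and 3 were lower, and of the sensor and degradation members none was higher and 2 were lower. Of all genes tested, 18.8% were called higher in SAS than in HSC3 and 20.6% lower. HSC4 was above HSC3 in 4 ER folding members and 3 cytosolic members and below it in 5 members, SDF2L1, XBP1, HSPA1A, HSPA1B and DNAJA1 (18.8% of all genes tested were called higher and 18.6% lower). The median of all genes shifted by 0.135 for HSC4 against HSC3 and by −0.156 for SAS against HSC4 when libraries were compared on their totals without a scaling factor. On that scale the split of called members in SAS against HSC4 was 10 higher and 12 lower in place of 13 and 9, HSPE1 no longer passed (edgeR adjusted p = 0.0677), and for HSC4 against HSC3 the split was 8 and 3 in place of 7 and 5.

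**Figure D5:**
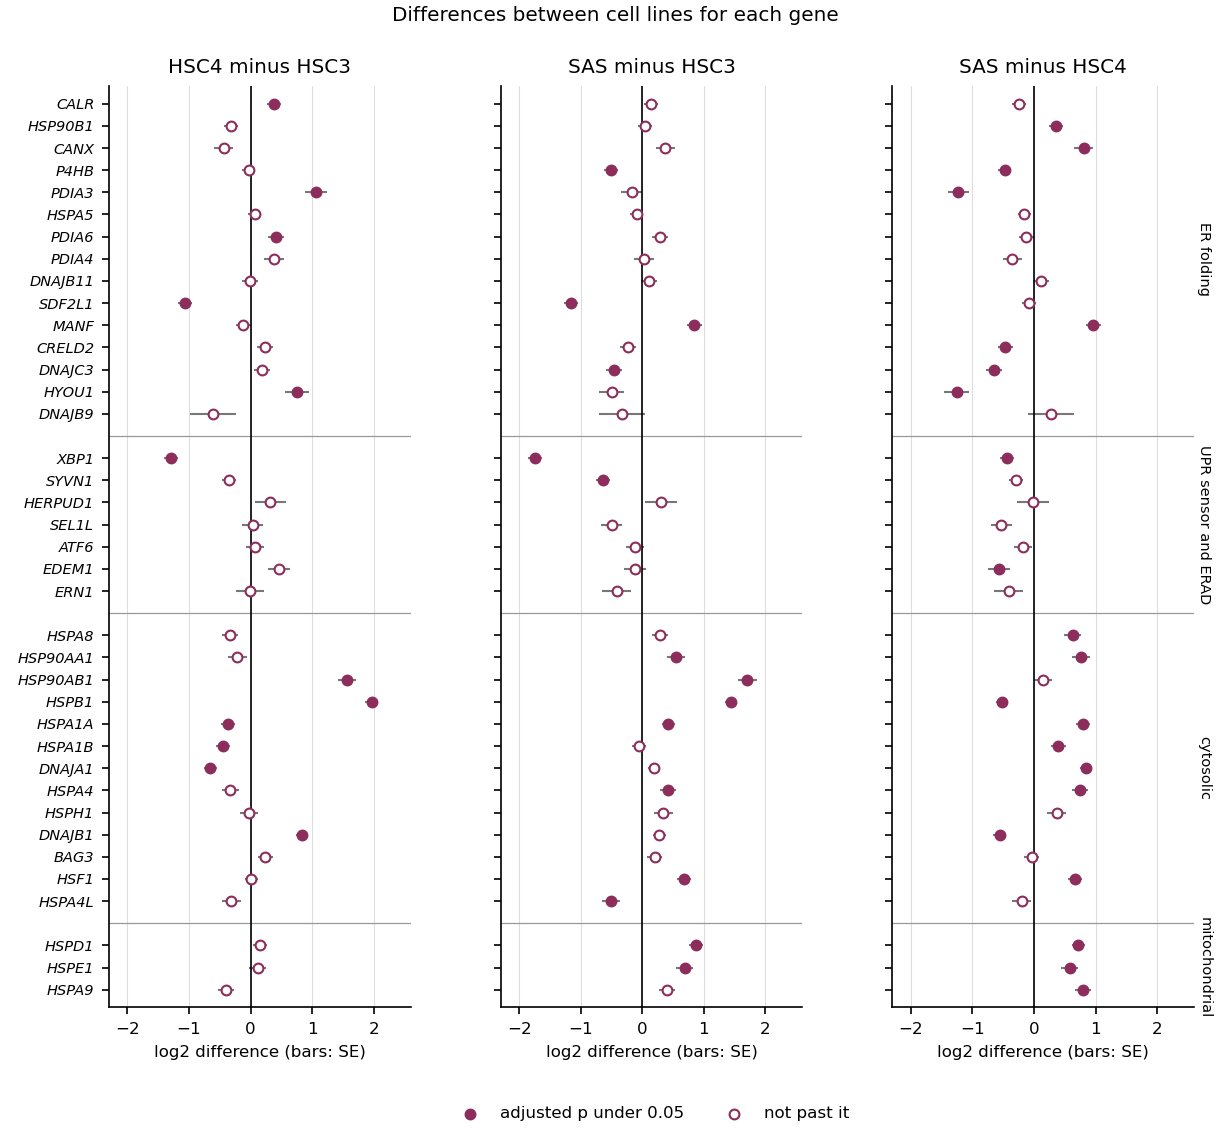
Fitted log2 difference between each pair of lines for the 38 members, with the standard error as a bar. Filled points passed an adjusted p of 0.05. XBP1 and SDF2L1 lie left of 0 in both comparisons with HSC3, HSP90AB1 and HSPB1 lie right of 0 there, and all 3 mitochondrial members lie right of 0 for SAS against HSC4.

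XBP1 and SDF2L1 were the members that set HSC3 apart upward. The XBP1 levels given above, 138 and 141 CPM in HSC3 and at most 61.1 CPM elsewhere, did not overlap, and the log2 difference of SAS against HSC3 was −1.74 ± 0.11 (SE; edgeR adjusted p = 0.000579). SDF2L1 was lower than in HSC3 by a log2 difference of −1.07 ± 0.11 in HSC4 and −1.15 ± 0.11 in SAS (SE; edgeR adjusted p = 0.0019 and 0.0014). For HSPA5, the best known target of the same response, the line means were 305 CPM in HSC4, 292 CPM in HSC3 and 272 CPM in SAS, and no pair of lines passed the test. Its log2 difference of SAS against HSC3 was −0.09 ± 0.10 (SE; edgeR adjusted p = 0.504). SYVN1 was highest in HSC3, with a log2 difference of −0.64 ± 0.11 in SAS (SE; edgeR adjusted p = 0.0077), although this did not pass without the DMEM library of HSC3 (edgeR adjusted p = 0.0547) or of SAS (edgeR adjusted p = 0.0557).

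HSP90AB1 (chr6:44246166-44253888, plus strand), the constitutive cytosolic HSP90, was the member with the widest gap in the other direction after HSPB1. It was at 441 and 539 CPM in HSC3, 1511 and 1381 CPM in HSC4 and 1710 and 1489 CPM in SAS. HSC3 lay below every other library, with log2 differences of 1.56 ± 0.15 for HSC4 and 1.71 ± 0.15 for SAS (SE; edgeR adjusted p = 0.0015 and 0.000988). More than 99% of its estimate came from 1 complete coding transcript in each library. In the ratio of its level to that of HSP90AA1, HSC3 had 0.302 and 0.295, HSC4 had 1.00 and 1.06, and SAS had 0.763 and 0.582, so the inducible form was the more abundant of the pair in HSC3 and in SAS and the pair was near equal in HSC4. HSPB1 was likewise lowest in HSC3, with log2 differences from HSC3 of 1.96 ± 0.10 for HSC4 and 1.44 ± 0.10 for SAS (SE; edgeR adjusted p = 0.000433 and 0.000622).

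SAS was highest in MANF, HSF1, HSPA1A and the mitochondrial genes. MANF differed from HSC4 by 0.96 ± 0.12 and from HSC3 by 0.85 ± 0.12 on the log2 scale (SE; edgeR adjusted p = 0.0025 and 0.0035). HSF1 was 1.60-fold above HSC3 (log2 difference 0.68 ± 0.11 SE, edgeR adjusted p = 0.0057), a gap with no overlap between libraries. Its targets went both ways between SAS and HSC4. HSPA1A was higher in SAS by 0.79 ± 0.11 (SE; edgeR adjusted p = 0.0038). DNAJB1 and HSPB1 were lower in SAS, with log2 differences of −0.56 ± 0.10 and −0.52 ± 0.10 (SE; edgeR adjusted p = 0.0084 and 0.0089). HSPH1, the HSP110 of the cytosol, and BAG3, the cochaperone of selective autophagy, passed in no pair of lines. HSPD1 differed from HSC3 by 0.88 ± 0.11 (SE; edgeR adjusted p = 0.0025) and HSPA9 from HSC4 by 0.80 ± 0.13 (SE; edgeR adjusted p = 0.0061). HSPA8 and HSP90AA1 were above HSC4 by 0.63 ± 0.13 and 0.76 ± 0.15 (SE; edgeR adjusted p = 0.0136 and 0.01). These 2 calls and that of HSPA9 were each lost when 1 library was left out: HSPA8 without HSC4 or SAS in DMEM (edgeR adjusted p = 0.114 and 0.11), HSPA9 without HSC4 in DMEM (edgeR adjusted p = 0.0521), and HSP90AA1 without HSC4 in HPLM (edgeR adjusted p = 0.0552), without SAS in DMEM (edgeR adjusted p = 0.0502) or without SAS in HPLM (edgeR adjusted p = 0.0637).

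HSC4 stood out by PDIA3, HYOU1 and DNAJB1. PDIA3 (ERp57), the disulfide isomerase that works with calnexin and calreticulin, was at 245 and 266 CPM in HSC3, 441 and 636 CPM in HSC4, and 239 and 214 CPM in SAS. The log2 difference of SAS against HSC4 was −1.23 ± 0.17 (SE; edgeR adjusted p = 0.0038), but between 78.8% and 83.6% of the estimate came from a processed transcript of 374 bases, PDIA3-205. With complete coding transcripts alone the difference was −0.92 (edgeR adjusted p = 0.023). HYOU1 (GRP170), the exchange factor of HSPA5, was at 10.3 and 12.2 CPM, 20.9 and 17.3 CPM, and 9.15 and 6.89 CPM, a log2 difference of −1.25 ± 0.20 for SAS against HSC4 (SE; edgeR adjusted p = 0.0057), lost without HSC4 in DMEM (edgeR adjusted p = 0.0522). Its complete coding transcript held between 0.3% and 1.2% of that estimate and was too low to test, and between 40.4% and 67.5% of the level came from HYOU1-214, an incomplete form of 711 bases. DNAJB1, the main HSP40 partner of cytosolic HSP70, was at 161 and 148 CPM in HSC4 against 83.7 to 104 CPM elsewhere, 0.83 ± 0.10 above HSC3 on the log2 scale (SE; edgeR adjusted p = 0.0028).

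Short forms also weighed on other members. HSPA8 drew between 39.9% and 44.6% of its estimate from a processed transcript of 465 bases. The complete coding share was 47.8% to 57.2% for HSPA4, 47.9% to 64.6% for CANX and 49.8% to 69.9% for P4HB. Because the values are per length, a short form that takes few reads adds much to a level, so the rank of these 4 genes among the members is less certain than that of HSPA5, whose estimate rested on 1 complete transcript. Members near the threshold depended on the fit: EDEM1 in SAS against HSC4 (−0.57, edgeR adjusted p = 0.0448), HSPA4L in SAS against HSC3 (−0.51, edgeR adjusted p = 0.0421) and HSP90B1 in SAS against HSC4 (0.36, edgeR adjusted p = 0.0421) were lost under 9, 10 and 8 of 17 alternatives. With complete coding transcripts EDEM1 was at −0.97, and HSP90B1 was at 0.21 without a scaling factor. HSPA1B in HSC4 against HSC3 (−0.45, edgeR adjusted p = 0.0268) was lost in 4, among them the fits without HSC3 in DMEM, without HSC4 in DMEM and without HSC4 in HPLM (edgeR adjusted p = 0.151, 0.168 and 0.0851).

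The other genes of these pathways were read from 7 lists with 133 entries, 130 of them tested between media, and none passed the adjusted test. At an unadjusted p under 0.05 there were 4 of 14 in the list of the cytosolic chaperonin TRiC and prefoldin, all higher in HPLM, 28.6% against 10.1% of all genes tested. Its median log2 fold change was 0.124, and 7 of 14 genes were higher in HPLM in all 3 lines, 50% against 16.9%. PFDN2, a prefoldin subunit that hands new actin and tubulin chains to TRiC, went from 189 to 292 CPM in HSC3, from 179.8 to 256 CPM in HSC4 and from 232 to 284 CPM in SAS. This was a difference of 0.48 ± 0.10 (SE; unadjusted p = 0.00287, edgeR adjusted p = 0.362). TCP1, a TRiC subunit, went from 254 to 360.1 CPM, from 281 to 334 CPM and from 668 to 769 CPM (log2 fold change 0.32 ± 0.10 SE, unadjusted p = 0.0153, edgeR adjusted p = 0.406). The PFDN2 media did not overlap, while TCP1 in SAS was above the other lines in either medium.

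In the list of HSF1 targets and HSP90 cochaperones beside the members, 1 gene had a higher and 1 a lower level at an unadjusted p under 0.05 of 28 tested, 7.14% in all against 10.1%. BAG1, an exchange factor of HSP70, went from 57.9 to 45.4 CPM in HSC3, from 56.3 to 40.0 CPM in HSC4 and from 39.1 to 27.4 CPM in SAS (log2 fold change −0.45 ± 0.09 SE, unadjusted p = 0.00294, edgeR adjusted p = 0.362). DEDD2 was 0.25 ± 0.10 higher (SE; unadjusted p = 0.0418, edgeR adjusted p = 0.478). In the list of other ER-associated degradation genes, SELENOS, which anchors the extraction motor VCP at the ER, was at 0.18 ± 0.09 (SE; edgeR adjusted p = 0.565).

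ER oxidoreductases and lectin cycle genes gave 2 of 21 at an unadjusted p under 0.05, 9.52% against 10.1% of all genes tested, both with higher levels in HPLM. PRDX4, a peroxidase that couples hydrogen peroxide to disulfide formation in the ER, went from 95.9 to 144 CPM in HSC3, from 139.6 to 155 CPM in HSC4 and from 125 to 153 CPM in SAS (log2 fold change 0.34 ± 0.11 SE, unadjusted p = 0.0204, edgeR adjusted p = 0.421). QSOX1, a sulfhydryl oxidase of the secretory pathway, was 0.35 ± 0.12 higher (SE; unadjusted p = 0.0233, edgeR adjusted p = 0.425). ER translocation genes gave 1 of 21 (4.76%), the signal peptidase subunit SPCS3 with 0.31 ± 0.11 (SE; unadjusted p = 0.0278, edgeR adjusted p = 0.440), followed by SSR3 of the translocon-associated complex with 0.21 ± 0.09 (SE; edgeR adjusted p = 0.515). The other mitochondrial chaperones and proteases gave 1 of 15 (6.67%), HTRA2, a protease of the intermembrane space, with −0.28 ± 0.10 (SE; unadjusted p = 0.038, edgeR adjusted p = 0.468). GRPEL1, the exchange factor of HSPA9, was at 0.28 ± 0.12 (SE; edgeR adjusted p = 0.528). EIF2S1, the eIF2alpha subunit that PERK phosphorylates, was at 0.13 ± 0.08 (SE; edgeR adjusted p = 0.641).

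Between lines some genes of these lists had wider gaps than any member. DNAJA4, a J-domain protein of the cytosol, was at 0.26 and 0.10 CPM in HSC3, 48.7 and 49.5 CPM in HSC4 and 17.7 and 18.9 CPM in SAS. EDEM2, which starts mannose trimming of misfolded glycoproteins, was at 8.85 and 17.7 CPM in HSC3, 41.1 and 38.9 CPM in HSC4 and 5.28 and 4.03 CPM in SAS. EIF2S1 was at 1084 and 1173 CPM in HSC4 against 350.0 to 462 CPM elsewhere. SERPINH1, the collagen chaperone HSP47, and the signal peptidase subunit SPCS2 had log2 differences of 1.70 and 1.55 for HSC4 against HSC3 (edgeR adjusted p = 0.000944 and 0.000645). The lines did not overlap in any of these genes, but each was named for the largest called line difference of its list. A lack of overlap was thus likely from the start, and its share among all genes was not counted. EIF2S1 did not pass between SAS and HSC3 (edgeR adjusted p = 0.0828). Of the TRiC and prefoldin genes, 13 of 14 passed in some pair of lines, 92.9% against 63%, and 9 of 14 were higher and none lower in SAS than in HSC4. CCT2, one of its subunits, was at 257 and 284 CPM in HSC3, 242 and 257 CPM in HSC4 and 859 and 808 CPM in SAS (log2 difference 1.74, edgeR adjusted p = 0.000568 for SAS against HSC4). HSCB, a J-domain protein for iron-sulfur cluster transfer, was at 32.4 and 29.6 CPM in HSC3 and at 7.17 to 10.8 CPM elsewhere.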

How the data were processed

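Poly(A) RNA of 3 lines in 2 media was measured in 6 libraries. The submitters' processing notes name FastQC, kallisto and hg38, while tool versions, the annotation and the strand setting are not given in the sources consulted. The authors deposited 1 table of estimated counts per transcript (scaled TPM, corrected for transcript length and scaled to library size), so precision taken from counts is approximate. The DMEM columns carry the name of a line and no medium, and 0 columns stayed unused. Of 161149 rows, 1312 repeated ones were counted once and 6878 transcripts without a symbol were left out. Sums per symbol were rounded.

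Genes were kept by filterByExpr (minimum count 10, total 15), leaving 13236, and scaled by TMM. The test was edgeR's quasi-likelihood test (edgeR 4.0.16, R 4.3.3) with line and medium, 2 residual and 4 prior degrees of freedom, adjusted by Benjamini-Hochberg over all genes tested, called under 0.05. Intervals used 6 degrees of freedom. Ratios per line used a prior count of 2. Transcript types and gene positions came from GENCODE 29 (GRCh38). The line pairs the libraries: deviations from the mean of a medium correlated at 0.779, 0.792 and 0.805 within a line. Alternatives were DESeq2 1.42.0, limma 3.58.1, other scalings and filters, repeated rows, libraries or lines left out, and 2 added after seeing the data: members summed with their pseudogenes and members by complete coding transcripts. Members and lists were chosen with earlier results of these data known. Named genes were 12 members whatever their values, those with unadjusted p under 0.05, the largest medium and called line differences of each class, and 3 per other list. The result of 1 gene that this rule named is not reported here.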

Additional observations from a re-analysis of the deposited data

Results flagged for a closer look

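Among the genes named in the report, 6 had a log2 ratio of HPLM over DMEM of opposite sign in 2 lines, with both ratios at least 0.3 from 0. Each line has 1 library per medium, and the difference between lines was not tested. DNAJB9 had −1.0 in HSC3 and 0.31 in SAS, as sums that include the retained-intron form described above. HERPUD1 had −0.72 in HSC3 and 0.38 in HSC4. DDIT3 had −0.51 in HSC3 and 0.69 in SAS, TRIB3 had −0.91 in HSC3 and 0.53 in HSC4, and ATF4 had −0.46 in HSC3 and 0.49 in SAS. EDEM2 had 0.99 in HSC3 and −0.38 in SAS, the reverse of the other genes. DDIT3, TRIB3 and ATF4 were picked after their values were seen.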

How the results depend on the processing

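No member was called between media under any of the alternatives run, nor without the replicate block, where HSPA5 had a log2 fold change of 0.207. With 1 line left out at a time, medium estimates that changed sign ran from −0.431 to 0.256 for DNAJB9, −0.344 to 0.212 for HERPUD1, −0.101 to 0.033 for HSPA1B, −0.007 to 0.249 for HSP90AA1 and −0.121 to 0.101 for HSPA9. They ran from −0.027 to 0.323 for PDIA3, −0.038 to 0.287 for ERN1 and −0.165 to 0.077 for HSP90AB1. The positive values of DNAJB9, HERPUD1 and HSPA1B are those without HSC3, and none of these estimates had passed the test. The medium median ran from −0.117 to 0.208 for the sensor class, the latter without HSC3, from −0.104 to −0.008 for the cytosolic class, from 0.017 to 0.127 for the ER folding class and from 0.000 to 0.166 for the mitochondrial class. With 1 library left out, the members called numbered 7 to 13 for HSC4 against HSC3, 7 to 14 for SAS against HSC3 and 7 to 22 for SAS against HSC4. A line is then read from 1 library, assumed to vary like the others. Of 424 alternative values of line differences of named genes, 40 lost the call and none changed sign. Only the largest called difference of each gene was followed, so a change of sign was unlikely from the start. Some alternatives also left the counts of a gene as they were. Without its largest member, the mean share of a library was 0.293% for the ER folding class, 0.0124% for the sensor class, 0.496% for the cytosolic class and 0.0958% for the mitochondrial class. Low levels, as of DNAJB9 and ERN1, limit the precision there.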
